A study of Mus musculus with 10 samples.

Results

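The genes of the mitochondrial carriers and of the mitochondrial protein import machinery were followed in mouse splenic B cells that were activated through the B cell receptor and exposed to prostaglandin E2 (PGE2). Members were taken by name alone: all genes whose symbol in the probe annotation began with Slc25a, Timm or Tomm followed by a digit. This gave 56 of the 18300 named genes on the array, of which 39 were carriers (Slc25a) and 17 were import genes, with 11 Timm genes and 6 Tomm genes among them. A single probe measured 53 of the 56, and probes of the other 3 (Slc25a15, Slc25a42 and Timm9) were averaged.

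Carriers of the SLC25 family are proteins of the mitochondrial inner membrane that exchange metabolites between cytosol and matrix, such as ADP for ATP, phosphate, amino acids, nucleotides and cofactors; a few family members lie in other membranes, among them Slc25a17 in peroxisomes. Most mitochondrial proteins are made in the cytosol and enter through the TOM complex of the outer membrane, where receptors (Tomm20, Tomm22, Tomm70) hand them to a channel (Tomm40). Proteins with a presequence then pass the TIM23 complex of the inner membrane, while the carriers themselves are escorted by small Timm chaperones of the intermembrane space to the TIM22 complex, which inserts them. Resting B cells are small and enlarge after antigen receptor stimulation, and their mitochondria grow with them.

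The series compared RNA pairwise on 10 arrays of 2 colours, with 2 arrays of opposite dye orientation for each of 5 comparisons. B cells were isolated with a Miltenyi B cell kit from spleens of female mice labelled Ptger4-/- or Ptger4+/+, aged 2 months, Ptger4 being the gene of the PGE2 receptor EP4, and all cells were kept in IMDM medium. At 2 h, anti-IgM F(ab')2, which cross-links the B cell receptor, was set against medium alone in cells labelled Ptger4-/- and in Ptger4+/+ cells. At 24 h, anti-IgM with PGE2 was set against anti-IgM alone in each genotype, and Ptger4-/- was set against Ptger4+/+ with both lots of cells on anti-IgM and PGE2. The labels give neither a mouse strain nor the number of animals in an RNA sample, and do not say whether the dye-swapped arrays of a pair held separate extracts, so that p-values may measure technical spread only.

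Each value is a log2 ratio of the group named first over its reference, turned by the dye labels, and ± marks the standard error of one limma fit to all 10 arrays with a dye term. A gene was called where its p-value, adjusted by Benjamini-Hochberg over all 22533 features, in each contrast by itself, fell under 0.05. The base of the deposited logarithms is not stated; if they were natural logarithms, each log2 value would be 1.44 times as large. The reading of the ratios as Cy5 over Cy3 is likely rather than stated: it rests on 21 measured immediate-early genes, of which 15 were called higher and 1 lower with anti-IgM at 2 h in either genotype. Ratios carry no level and no depth, so the order of abundance of these genes, and the presence of any marker, could not be read. The small number of arrays limits the precision, as do the single probes behind most members.

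The arrays of a pair correlated over all features at 0.740 for anti-IgM in cells labelled Ptger4-/- and 0.708 in Ptger4+/+ cells, at 0.570 for Ptger4-/- over Ptger4+/+, and at 0.379 for PGE2 in Ptger4+/+ cells. The arrays for PGE2 in cells labelled Ptger4-/- correlated at -0.219. The Ptger4 probe showed no loss in RNA labelled Ptger4-/-, with ratios of 0.46 and 0.52 over Ptger4+/+, so these samples are called by their label throughout. Among markers of B cells, 8 were measured: 1 was called higher and 4 lower with anti-IgM in either genotype, 1 was lower with PGE2 in cells labelled Ptger4-/- (Cd79a, -0.81) and 3 were higher in Ptger4+/+ cells, and 3 were lower in cells labelled Ptger4-/- than in Ptger4+/+ cells at 24 h. The genotype difference in the PGE2 response passed as lower for 2 of the 8, at -1.72 for Cd79a and -0.96 for Cd22. It passed as lower for 3.33% of all features. Over 7 marker lists of other blood cells, holding 35 measured genes, the list medians stayed between -0.09 and 0.14 on the log2 scale in the 5 comparisons. Of these 35 genes, 4 were called higher and 3 lower with anti-IgM in cells labelled Ptger4-/-, and 5 higher and 1 lower in Ptger4+/+ cells. With PGE2, 0 were called in cells labelled Ptger4-/- and 4 were higher in Ptger4+/+ cells. For Ptger4-/- over Ptger4+/+, 2 were higher and 3 lower. Over all features, 11.6% were higher and 11.7% lower with anti-IgM in cells labelled Ptger4-/-, and 9.71% and 11.4% in Ptger4+/+ cells. The shares with PGE2 were 0.00888% and 0.138% in cells labelled Ptger4-/-, and 9.11% and 17% in Ptger4+/+ cells. They were 15.9% and 11% for Ptger4-/- over Ptger4+/+. Single markers of monocytes and macrophages reached 0.69 with PGE2 in Ptger4+/+ cells and -0.83 for Ptger4-/- over Ptger4+/+. The part of either in the results was not tested, and in bulk RNA fewer cells of a type and less RNA per cell cannot be told apart.

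Anti-IgM for 2 h raised most import genes, while carriers were called in both directions. In cells labelled Ptger4-/-, 12 of 17 import genes were called higher and 0 lower, and in Ptger4+/+ cells 11 were higher and 0 lower, where 11.6% and 9.71% of all features were called higher. The median import gene stood at 0.80 in cells labelled Ptger4-/- (0.75 and 0.77 on the single arrays) and at 0.69 in Ptger4+/+ cells (0.77 and 0.61), where the median over all features lay between -0.000906 and 0.00838 in the 5 comparisons. Carriers split in both directions: in cells labelled Ptger4-/- there were 9 higher and 5 lower, and in Ptger4+/+ cells 5 higher and 7 lower, where 11.7% and 11.4% of all features were called lower. Their median was 0.03 in either genotype. Counted in either direction, 14 of 39 carriers were called in cells labelled Ptger4-/-, where 23.3% of all features were. In Ptger4+/+ cells 12 of 39 were, where 21.1% of all features were. The import median exceeded the carrier median on each of the 4 arrays, by 0.759 and 0.714 in cells labelled Ptger4-/- and by 0.757 and 0.569 in Ptger4+/+ cells. Without the second array of Ptger4+/+ cells, the carriers called there numbered 7 (3 higher, 4 lower), and calls over all features were 15.2%, against 21.1% with it.

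**Figure D1:**
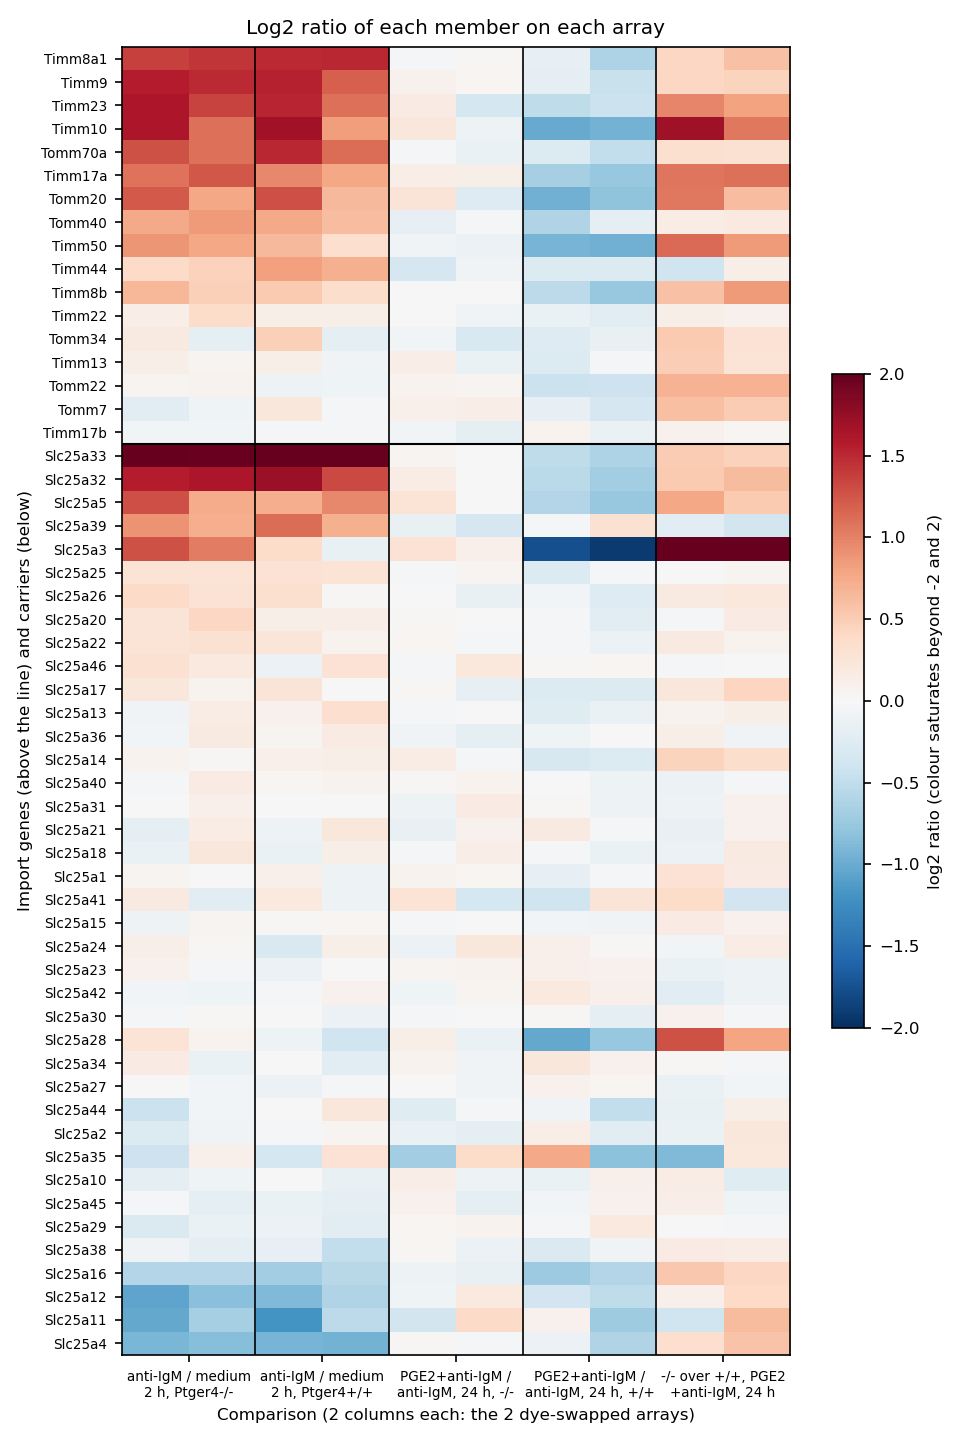
Log2 ratios of the members on each of the 10 arrays, import genes above carriers, with 2 columns per comparison and colour giving the ratio (saturated beyond -2 and 2). Import genes are mostly positive with anti-IgM, negative with PGE2 in Ptger4+/+ cells and positive for Ptger4-/- over Ptger4+/+, while most carriers stay near 0.

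Of the 6 Tomm genes, 3 rose with anti-IgM in both genotypes (Tomm70a, Tomm20 and Tomm40) and 3 were called in neither. Tomm70a, the receptor that takes carrier precursors, had ratios of 1.27 and 1.11 in cells labelled Ptger4-/- and of 1.52 and 1.11 in Ptger4+/+ cells (1.19 ± 0.09 and 1.31 ± 0.09). Tomm20, the presequence receptor, had 1.23 and 0.77 in cells labelled Ptger4-/- and 1.29 and 0.65 in Ptger4+/+ cells (1.00 ± 0.08 and 0.97 ± 0.08). Both genes were above 0 on all 4 arrays and about as far up in one genotype as in the other. The channel gene Tomm40 stood at 0.75 and 0.85 in cells labelled Ptger4-/- and at 0.77 and 0.61 in Ptger4+/+ cells. For Tomm22, the central receptor, the ratios were 0.06 and 0.07 in cells labelled Ptger4-/- and -0.10 and -0.09 in Ptger4+/+ cells, and neither passed. Neither Tomm7, a small subunit of the complex, nor Tomm34, a cytosolic co-chaperone of import, was called at 2 h. Tomm34 had values of both signs, 0.19 and -0.18 in cells labelled Ptger4-/- and 0.48 and -0.18 in Ptger4+/+ cells.

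In the TIM23 complex, Timm23, Timm17a, Timm50 and Timm44 rose in both genotypes. Timm23, the channel-forming subunit, had 1.62 and 1.35 in cells labelled Ptger4-/- and 1.53 and 1.11 in Ptger4+/+ cells, or 2.80-fold and 2.49-fold (limma adjusted p = 9.52e-06 and 2.21e-05). Its partner Timm17a stood at 1.09 and 1.24 in cells labelled Ptger4-/- and at 0.95 and 0.77 in Ptger4+/+ cells. The paralogue Timm17b was called in none of the 5 comparisons, with a mean of -0.03 in Ptger4+/+ cells at 2 h. Timm50, the receptor of the complex, had 0.89 and 0.77 in cells labelled Ptger4-/- and 0.65 and 0.33 in Ptger4+/+ cells. For Timm44, which tethers the matrix Hsp70 motor to the channel, the ratios were 0.39 and 0.46 in cells labelled Ptger4-/- (0.42 ± 0.10) and 0.83 and 0.71 in Ptger4+/+ cells (0.77 ± 0.10). The genotype difference of Timm44 did not pass, at -0.35 ± 0.14 (limma adjusted p = 0.35).

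On the carrier route, Timm9, Timm10, Timm8a1 and Timm8b rose in both genotypes. Timm9 and Timm10 form the chaperone hexamer of the intermembrane space. Timm9 had 1.58 and 1.5 in cells labelled Ptger4-/- and 1.53 and 1.19 in Ptger4+/+ cells, and its 2 probes gave 1.6 and 1.47 in cells labelled Ptger4-/- and 1.22 and 1.5 in Ptger4+/+ cells. Timm10 had 1.62 and 1.11 in cells labelled Ptger4-/- and 1.67 and 0.83 in Ptger4+/+ cells; the first array was the higher in both pairs. Timm8a1, whose human counterpart is mutated in a deafness-dystonia syndrome, stood at 1.36 and 1.43 in cells labelled Ptger4-/- and at 1.5 and 1.51 in Ptger4+/+ cells. Its usual partner Timm13 was not called in either genotype, with means of 0.09 and 0.03. Timm22, the channel that inserts the carriers, had 0.14 and 0.37 in cells labelled Ptger4-/- (0.25 ± 0.06, adjusted p = 0.0186) and 0.12 and 0.11 in Ptger4+/+ cells, where it was not called.

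**Figure D2:**
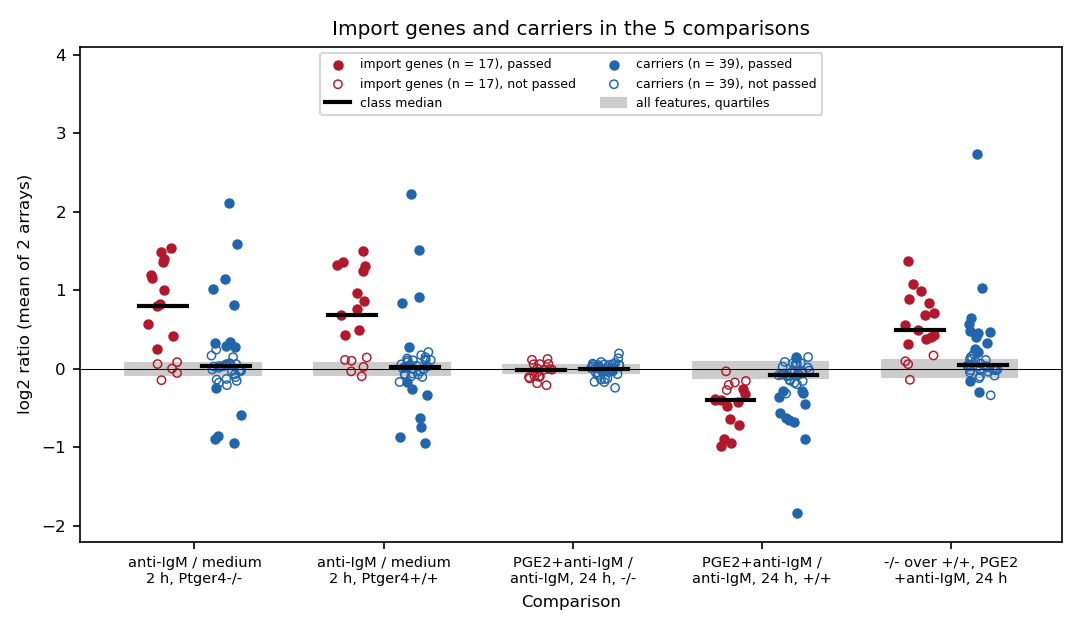
Mean log2 ratio of each member by comparison (points, filled where the adjusted p passed), import genes beside carriers, with class medians (black lines) and the quartiles of all features (grey). Import medians of 0.80 and 0.69 with anti-IgM, -0.39 with PGE2 in Ptger4+/+ cells and 0.50 for Ptger4-/- over Ptger4+/+ lie outside the grey band, and the carrier medians lie inside it.

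Among carriers, 5 were called higher with anti-IgM in both genotypes (Slc25a33, Slc25a32, Slc25a39, Slc25a5 and Slc25a25), against 11 import genes, and 7.76% of all features. Slc25a33, which carries pyrimidine nucleotides, had 2.26 and 1.98 in cells labelled Ptger4-/- and 2.43 and 2.03 in Ptger4+/+ cells. That was 4.34-fold and 4.69-fold (2.12 ± 0.09 and 2.23 ± 0.09, limma adjusted p = 4.09e-06 and 4.68e-06), the largest rise of any member in either genotype. Slc25a32, a carrier of folate and FAD, stood at 1.56 and 1.61 in cells labelled Ptger4-/- and at 1.72 and 1.32 in Ptger4+/+ cells. Slc25a39, which takes glutathione into mitochondria, had 0.90 and 0.73 in cells labelled Ptger4-/- and 1.12 and 0.71 in Ptger4+/+ cells. The fifth, Slc25a25, an ATP-Mg/phosphate carrier, rose by much less, 0.27 and 0.28 on average. In cells labelled Ptger4-/- alone, Slc25a3, Slc25a20, Slc25a22 and Slc25a26 were also called higher, which by itself shows no difference from Ptger4+/+ cells; of these, the difference passed for Slc25a3 and not for the other 3.

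The ADP/ATP carriers went opposite ways. Slc25a5 (ANT2, the form of dividing cells) had 1.29 and 0.74 in cells labelled Ptger4-/- and 0.72 and 0.97 in Ptger4+/+ cells (1.02 ± 0.13 and 0.84 ± 0.13). Slc25a4 (ANT1, the form of muscle and other resting tissues) had -0.92 and -0.85 in cells labelled Ptger4-/- and -0.93 and -0.95 in Ptger4+/+ cells (-0.89 ± 0.09 and -0.94 ± 0.09, limma adjusted p = 0.000269 and 0.000249). None of the 4 anti-IgM arrays put Slc25a4 above 0 or Slc25a5 below it. Slc25a31, the testis form, was not called in any comparison.

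Slc25a4 was 1 of 4 carriers called lower with anti-IgM in both genotypes, where no import gene was, and 8.49% of all features were. Slc25a12, the aspartate/glutamate carrier of the malate-aspartate shuttle, had -1.05 and -0.84 in cells labelled Ptger4-/- and -0.88 and -0.60 in Ptger4+/+ cells. Slc25a11, the oxoglutarate/malate carrier of the same shuttle, stood at -1.03 and -0.67 in cells labelled Ptger4-/- and at -1.20 and -0.53 in Ptger4+/+ cells. Both genes were below 0 on all 4 arrays, and Slc25a13, the other aspartate/glutamate carrier, was not called. Without the dye term the call of Slc25a11 was lost in cells labelled Ptger4-/- and in Ptger4+/+ cells (limma adjusted p = 0.130 and 0.137). The fourth was Slc25a16, with means of -0.58 and -0.63. Called lower in cells labelled Ptger4-/- only was Slc25a44, a carrier of branched-chain amino acids (-0.44 and -0.06). Slc25a28, Slc25a38 and Slc25a45 were called lower in Ptger4+/+ cells only (-0.25, -0.33 and -0.17 on average). None of these 4 passed as different between genotypes. Without the dye term all 4 calls were lost (limma adjusted p = 0.383, 0.400, 0.055 and 0.378 in this order). Slc25a45 kept its call in 0 of the 10 fits that left out an array, Slc25a44 and Slc25a28 in 8, and Slc25a38 in 9.

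**Figure D3:**
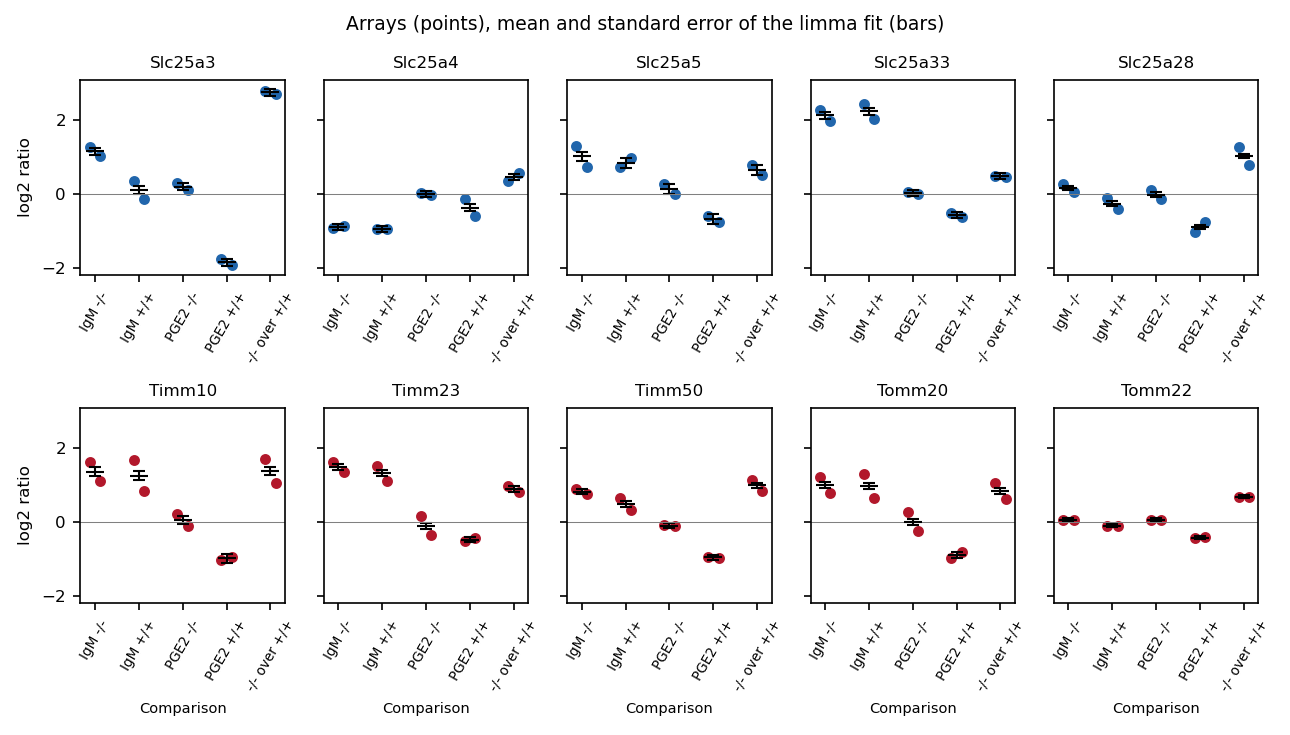
Log2 ratios on the single arrays (points) with the fitted mean ± standard error (bars) in the 5 comparisons for 5 carriers (upper panels) and 5 import genes (lower panels). Slc25a4 and Slc25a5 lie on opposite sides of 0 with anti-IgM, Slc25a3 reaches 2.78 and 2.70 for Ptger4-/- over Ptger4+/+, and Tomm22 stays near 0 with anti-IgM.

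The 2 h ratios of most members were close in both genotypes. Over the 17 import genes, the means in cells labelled Ptger4-/- and in Ptger4+/+ cells correlated at 0.95 (Pearson) and 0.93 (Spearman), and over the 39 carriers at 0.93 and 0.75, against 0.85 and 0.65 over all features. These are descriptions across genes of the same arrays, and genes are not independent replicates. No import gene passed as different between genotypes at 2 h, with 5 of 17 at an unadjusted p under 0.05 in limma, against 13.4% of all features. The lowest adjusted p was 0.161, for Timm17a, where 1.13% of all features were called higher and 0.608% lower in cells labelled Ptger4-/-. The range of the 17 differences ran from -0.35 for Timm44 to 0.34 for Timm50. Of the carriers, Slc25a3 alone passed.

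With PGE2 added to anti-IgM for 24 h, import genes were lower in Ptger4+/+ cells. Of the 17, 12 were called lower and 0 higher, where 17% of all features were called lower and 9.11% higher, and the median import gene stood at -0.39 (-0.28 and -0.42 on the single arrays). Of the 39 carriers, 11 were lower and 1 higher, with a median of -0.08 (-0.06 and -0.12). Import genes were below 0 on both arrays in 16 of 17 cases, where 28.8% of all features were, and the import median lay under the carrier median by 0.225 and 0.300 on the single arrays. Without the second array, 7 import genes and 6 carriers were called, and calls over all features fell to 11.8%, against 26.1% with it. Without the dye term, calls over all features were 12.9%, and Timm23, Timm9 and Tomm7 were among those lost, as were Slc25a4, Slc25a17, Slc25a42 and Slc25a44.

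Timm10 fell most among import genes, at -1.01 and -0.94, or 0.508 of the level without PGE2 (-0.98 ± 0.12, limma adjusted p = 0.00116). Close to it were Timm50 at -0.93 and -0.96, Tomm20 at -0.97 and -0.81, and Timm17a at -0.67 and -0.76. Timm8b, a small chaperone of the intermembrane space, followed at -0.52 and -0.76. These 5 were at or below -0.52 on both arrays. Timm23 had -0.51 and -0.42, Tomm40 had -0.60 and -0.19, and Tomm70a had -0.28 and -0.50. Timm8a1 at -0.16 and -0.62 and Timm9 at -0.19 and -0.45 moved less on the first array than on the second. Of the Timm9 probes, the second passed at -0.48 and the first did not at -0.15. Tomm22, not called at 2 h, fell with PGE2 at -0.43 and -0.41, and Tomm7 had -0.17 and -0.34. The 5 import genes not called lay between -0.27 (Timm44, with -0.27 on both arrays) and -0.03 (Timm17b), and Timm22 stood at -0.13 and -0.22.

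Among carriers, the largest fall with PGE2 in Ptger4+/+ cells was that of Slc25a3, the mitochondrial phosphate carrier, at -1.76 and -1.92 (-1.84 ± 0.10, 0.280 of the level without PGE2, limma adjusted p = 6.67e-05). Slc25a28 (mitoferrin, an iron carrier) had -1.02 and -0.76. By their means, both stood further from 0 than any other carrier. Slc25a5 was at -0.59 and -0.76, Slc25a16 at -0.72 and -0.58, Slc25a32 at -0.54 and -0.70, and Slc25a33 at -0.51 and -0.62. Slc25a4 moved the same way as Slc25a5 here, but with unequal arrays, -0.12 and -0.60 (-0.36 ± 0.09, adjusted p = 0.0242). Slc25a12, Slc25a14, Slc25a17 and Slc25a44 made up the rest, with means between -0.45 and -0.28. The single carrier called higher, Slc25a42, a coenzyme A carrier, stood at 0.20 and 0.10, and its 3 probes gave 0.42, -0.04 and 0.07, so that 1 probe carried the call.

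Of the 11 import genes that rose with anti-IgM in both genotypes, 10 were called lower with PGE2 in Ptger4+/+ cells, the exception being Timm44. Of the 5 such carriers, 3 were (Slc25a32, Slc25a33 and Slc25a5). The same held for 63.4% of the 1748 features of the whole array that rose in both genotypes, so a fall with PGE2 was common among genes raised by anti-IgM. Of the 4 carriers lower with anti-IgM in both genotypes, 3 (Slc25a12, Slc25a16 and Slc25a4) were lower again with PGE2, against 26.8% of 1914 features. Tomm22, Tomm7, Slc25a14 and Slc25a17 were lower with PGE2 and called at 2 h in neither genotype. Of the members counted here as lower with PGE2, Timm23, Timm9, Tomm7, Slc25a4 and Slc25a17 lost that call without the dye term. Between the 2 treatments in Ptger4+/+ cells, means correlated at -0.42 over the import genes and at -0.12 over the carriers (Pearson), a description across genes. This correlation was not computed over all features, so it shows nothing particular to these classes.

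**Figure D4:**
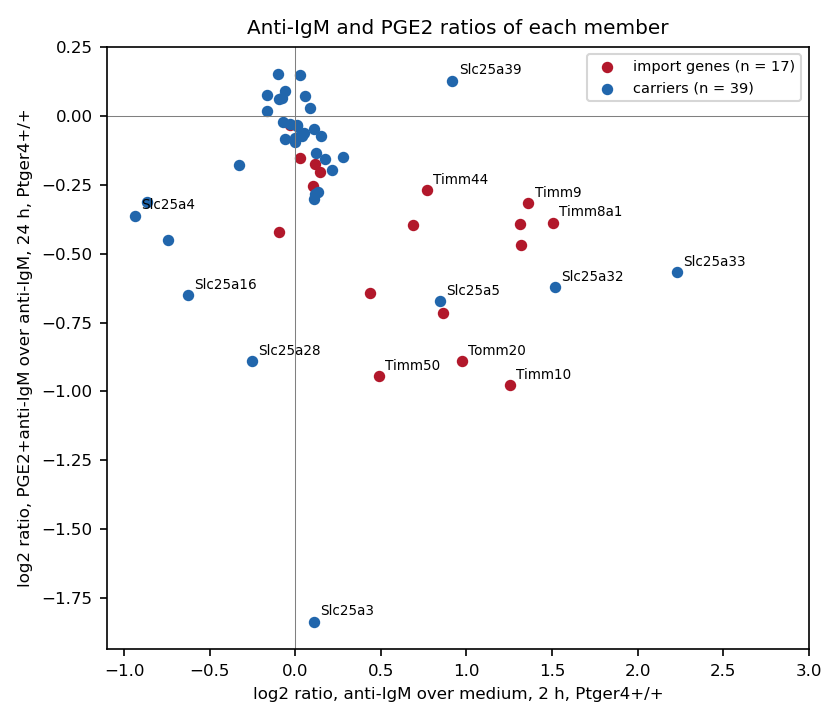
Mean log2 ratio with PGE2 added at 24 h (vertical axis) against that with anti-IgM at 2 h (horizontal axis), both in Ptger4+/+ cells, one point per member, import genes and carriers in separate colours. All 17 import genes, raised by anti-IgM or not, lie below 0 on the vertical axis, with Timm10 at 1.25 and -0.98. Slc25a39 lies above 0 on that axis, and Slc25a3 stands apart at 0.11 and -1.84.

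In cells labelled Ptger4-/-, no member was called with PGE2, where 0.00888% of all features were called higher and 0.138% lower. At an unadjusted p under 0.05 in limma, 0 import genes and 2 carriers passed, against 8.34% of all features. The medians were -0.01 for import genes and 0.00 for carriers. Import genes ran from -0.34 to 0.26 on the first array and from -0.36 to 0.13 on the second, and carriers from -0.70 to 0.29 and from -0.35 to 0.39. The arrays gave 25 of 56 members the same sign, against 37.5% of all features. Timm10 had 0.22 and -0.10, Tomm20 had 0.26 and -0.25, and Timm50 had -0.08 and -0.11. Slc25a3 stood at 0.29 and 0.10 (0.20 ± 0.10, adjusted p = 0.674).

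The difference in the PGE2 response between genotypes was tested directly. It passed as higher in cells labelled Ptger4-/- for 6 of 17 import genes and for 8 of 39 carriers, and as lower for 1 carrier, where 9.33% of all features passed as higher and 3.33% as lower. The 6 import genes were Timm10 (1.04 ± 0.17), Tomm20 (0.89 ± 0.11), Timm50 (0.85 ± 0.10), Timm17a (0.84 ± 0.09), Timm8b (0.63 ± 0.13) and Tomm22 (0.48 ± 0.05). Without the dye term, Timm10 (limma adjusted p = 0.139) and Tomm20 (adjusted p = 0.137) did not pass, which left 4. Of the 10 fits that left out an array, Timm10 kept its call in 9 and Timm8b in 7, while the other 4 import genes kept theirs in all. For Timm9, Timm8a1, Timm23 and Tomm7 the differences lay between 0.37 and 0.38 and did not pass. The carriers were led by Slc25a3, at 2.03 ± 0.14 (limma adjusted p = 0.000507), and Slc25a28, at 0.88 ± 0.08. Slc25a5 followed at 0.81 ± 0.18 and Slc25a32 at 0.70 ± 0.13, while Slc25a4 at 0.36 ± 0.13 did not pass (adjusted p = 0.12). Slc25a39 was the one with the opposite sign (-0.37 ± 0.08). Leaving out an array of the PGE2 pairs left 3 or 4 carriers called in 3 of the 4 cases: 3 without the first and 4 without the second array of cells labelled Ptger4-/-, and 4 without the second of Ptger4+/+ cells. Over all features, 5.79%, 4.86% and 7.42% were then called, against 12.7% with all arrays. Without the dye term 4.93% were, and Slc25a12, Slc25a14, Slc25a33, Slc25a39 and Slc25a5 lost their calls.

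Set directly against each other at 24 h with anti-IgM and PGE2, cells labelled Ptger4-/- had more RNA of most import genes than Ptger4+/+ cells. Of 17 import genes, 13 were called higher and 0 lower, where 15.9% of all features were higher and 11% lower, and the median was 0.50 (0.52 and 0.50 on the single arrays). Both arrays put 16 of 17 import genes above 0, where 32.5% of all features were. Of the carriers, 11 were higher and 2 lower, with a median of 0.04, and the import median exceeded that of carriers by 0.425 and 0.379. This comparison shares its RNA labels with the PGE2 comparisons of both genotypes, so it is not a separate line of evidence for them. Without its first array 6 carriers and 10.7% of all features were called, and without its second 4 and 11.1%, against 26.9% with both. Without the dye term the share was 12.2%, and Tomm34, Tomm70a, Slc25a1, Slc25a12, Slc25a17, Slc25a39 and Slc25a42 lost their calls.

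Timm10 had 1.70 and 1.05 (1.38 ± 0.12, 2.60-fold), Timm17a had 1.06 and 1.10, Timm50 had 1.14 and 0.85, Timm23 had 0.98 and 0.81, and Tomm20 had 1.05 and 0.61. Every one of these 5 was above 0.6 on both arrays. Tomm22 stood at 0.69 on each array (limma adjusted p = 3.36e-05), and Tomm7, Timm8b and Timm8a1 at 0.55, 0.71 and 0.50 on average. Tomm34 (0.52 and 0.29) and Timm13 (0.49 and 0.27) were called here and in no other comparison. Tomm70a passed narrowly at 0.33 and 0.30 (adjusted p = 0.0446). The channel genes of the outer membrane and of carrier insertion did not pass, Tomm40 at 0.15 and 0.19 and Timm22 at 0.12 and 0.08, nor did Timm44, whose arrays disagreed in sign at -0.40 and 0.12.

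Slc25a3 was the member with the widest genotype difference. Its RNA was 6.67-fold higher in cells labelled Ptger4-/- than in Ptger4+/+ cells at 24 h with anti-IgM and PGE2, at 2.78 and 2.70 on the single arrays (2.74 ± 0.10, limma adjusted p = 8.27e-06), the highest ratio of any member in any comparison. With anti-IgM at 2 h it stood at 1.27 and 1.03 in cells labelled Ptger4-/- (1.15 ± 0.10) and at 0.36 and -0.14 in Ptger4+/+ cells (0.11 ± 0.10, not called). That difference of 1.04 ± 0.14 passed narrowly (adjusted p = 0.0259), and no longer passed in 7 of the 10 fits that left out 1 array, nor without the dye term (adjusted p = 0.108). A single probe measured the gene. Slc25a28 was next among carriers at 24 h, at 1.27 and 0.78, then Slc25a5 at 0.78 and 0.52, Slc25a32 at 0.52 and 0.64 and Slc25a33 at 0.50 and 0.47. Slc25a4 stood at 0.34 and 0.57, and Slc25a16, Slc25a14, Slc25a17, Slc25a12 and the citrate carrier Slc25a1 had means between 0.22 and 0.47. Slc25a39 (-0.22 and -0.36) and Slc25a42 (-0.21 and -0.10) were called lower, the means being -0.29 and -0.16.

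Carriers without any call made up 18 of 39, against 1 of 17 import genes (Timm17b) and 52.8% of all features. They included the dicarboxylate carrier Slc25a10, the aspartate/glutamate carrier Slc25a13 (citrin), the ornithine carrier Slc25a15 and the oxodicarboxylate carrier Slc25a21. For Slc25a15 this holds for the average of its 2 probes. With anti-IgM in cells labelled Ptger4-/- the probes gave 0.16 and -0.21, and the second passed when probes were kept apart (limma adjusted p = 0.0258). All 5 means of a gene lay within 0.2 of 0 for 16 carriers and for 1 import gene. Slc25a13 had a mean of 0.21 in Ptger4+/+ cells at 2 h, where its paralogue Slc25a12 stood at -0.74. Arrays of a pair disagreed by more than 1 for 2 carriers: Slc25a35 with PGE2 (-0.70 and 0.37 in cells labelled Ptger4-/-, 0.76 and -0.82 in Ptger4+/+ cells) and for Ptger4-/- over Ptger4+/+ (-0.88 and 0.21), and Slc25a11 for Ptger4-/- over Ptger4+/+ (-0.40 and 0.63).

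Symbols on the array are those of its old annotation, and updating them through synonyms in the mouse reference added 11 genes of the same families and removed 0. Among them, Tomm5, a small subunit of the TOM complex, had 1.11 and 1.36 with anti-IgM in cells labelled Ptger4-/- and 1.40 and 1.51 in Ptger4+/+ cells, and -0.65 and -0.83 with PGE2 in Ptger4+/+ cells. Timm29, a subunit of the TIM22 complex, was called higher with anti-IgM in cells labelled Ptger4-/- (0.58 on average) and not in Ptger4+/+ cells (0.06), a difference that did not pass (adjusted p = 0.074). Tomm6, another small TOM subunit, had -0.61 and -0.75 with PGE2 in cells labelled Ptger4-/- (limma adjusted p = 0.0342) and 0.24 and 0.50 in Ptger4+/+ cells. The genotype difference in the PGE2 response passed for both, at -1.05 ± 0.11 for Tomm6 and 0.90 ± 0.08 for Tomm5, with opposite signs. The import median with these genes was 0.57 in cells labelled Ptger4-/- and 0.44 in Ptger4+/+ cells at 2 h.

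Other genes of mitochondrial import and protein folding, a list of 34 with 32 measured, were called higher with anti-IgM more often than lower. In cells labelled Ptger4-/-, 18 were higher and 5 lower (median 0.32), where 11.6% of all features were higher and 11.7% lower. In Ptger4+/+ cells 14 were higher, 5 lower and 13 not called (median 0.29), where 9.71% of all features were higher and 11.4% lower. Chchd4, the receptor of the disulfide relay that folds the small Timm proteins, had means of 1.90 in cells labelled Ptger4-/- and 1.78 in Ptger4+/+ cells. Hspa9, the matrix Hsp70 of the import motor, stood at 1.47 in cells labelled Ptger4-/- and 1.34 in Ptger4+/+ cells, and Hspd1, the matrix chaperonin, at 1.57 and 1.28. With PGE2, 0 of the list were called in cells labelled Ptger4-/-, where 0.00888% of all features were higher and 0.138% lower. In Ptger4+/+ cells 2 were higher and 21 lower (median -0.37), where 9.11% of all features were higher and 17% lower. Between genotypes at 24 h, 20 of the list passed as higher in cells labelled Ptger4-/- and 1 as lower. Over all features, 15.9% were higher and 11% lower. The highest of the list was Mtx1, an outer membrane protein of the metaxin family, at 1.71 ± 0.09.

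A second list held 24 transporters and membrane proteins of mitochondria outside the SLC25 family, of which 22 were measured. With anti-IgM, 4 passed each way in cells labelled Ptger4-/-, where 11.6% of all features were higher and 11.7% lower. In Ptger4+/+ cells 4 were higher and 6 lower, where 9.71% of all features were higher and 11.4% lower. Mpc1, a subunit of the pyruvate carrier, was higher (0.94 in cells labelled Ptger4-/-, 0.48 in Ptger4+/+ cells), and Tspo, an outer membrane protein, was lower (-0.74 and -1.12). Between genotypes at 24 h, 5 of the 22 passed as higher in cells labelled Ptger4-/- and 4 as lower, where 15.9% of all features were higher and 11% lower. The means ran from -0.52 to 0.72, with a median of 0.07. Vdac2, a pore of the outer membrane, stood 0.72 ± 0.05 higher in cells labelled Ptger4-/- than in Ptger4+/+ cells.

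Promoters are shown for 3 members that rose with anti-IgM in both genotypes and hold the letters CACGTG, and for Slc25a3, so that their letters can be compared; not every member that rose holds these letters. A RefSeq window (build GRCm38.p6) from 250 bases before to 50 after the start was found for 47 of the 56 members, and 270 bases of 4 of them, ending 20 bases after the start, are given with each CACGTG in capitals. CACGTG is the E-box letters that Myc and Max can bind, and it reads the same on both strands. Slc25a33 (chr4:149774248-149774517, minus strand) rose most with anti-IgM, Tomm20 (chr8:126945902-126946171, minus strand) and Timm9 (chr12:71136656-71136925, minus strand) are import genes that rose, and Slc25a3 (chr10:91123948-91124217, minus strand) is the carrier with the widest genotype difference.
Slc25a33: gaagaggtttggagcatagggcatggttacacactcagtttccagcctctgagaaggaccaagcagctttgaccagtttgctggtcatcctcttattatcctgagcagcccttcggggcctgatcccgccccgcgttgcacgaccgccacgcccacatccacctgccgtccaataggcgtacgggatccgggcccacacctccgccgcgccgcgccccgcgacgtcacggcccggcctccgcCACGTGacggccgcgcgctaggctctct
Tomm20: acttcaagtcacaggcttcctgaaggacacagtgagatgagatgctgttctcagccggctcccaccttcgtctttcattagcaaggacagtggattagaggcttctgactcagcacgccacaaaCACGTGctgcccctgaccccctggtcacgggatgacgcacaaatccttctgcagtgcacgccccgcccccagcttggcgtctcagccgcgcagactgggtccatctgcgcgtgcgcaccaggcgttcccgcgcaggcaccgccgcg
Timm9: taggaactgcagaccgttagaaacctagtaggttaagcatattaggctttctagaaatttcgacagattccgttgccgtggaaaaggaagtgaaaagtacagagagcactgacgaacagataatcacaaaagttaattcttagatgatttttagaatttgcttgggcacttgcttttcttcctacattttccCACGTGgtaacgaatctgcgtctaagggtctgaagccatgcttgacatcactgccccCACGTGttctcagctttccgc
Slc25a3: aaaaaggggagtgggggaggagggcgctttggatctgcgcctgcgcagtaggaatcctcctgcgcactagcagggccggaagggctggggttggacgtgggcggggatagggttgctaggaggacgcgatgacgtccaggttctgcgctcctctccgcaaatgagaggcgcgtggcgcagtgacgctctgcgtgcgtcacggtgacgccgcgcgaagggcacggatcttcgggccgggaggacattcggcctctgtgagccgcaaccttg

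CACGTG starts 8 bases before the start site in Slc25a33 and 126 before it in Tomm20, and it occurs 2 times in Timm9, 58 bases and 1 base before the start. The Slc25a3 window printed has none. Over the whole windows, 4 of 16 import genes (25%) and 7 of 31 carriers (22.6%) held CACGTG, against 9.90% of 14684 genes on the array with a window. Of members that rose in both genotypes, 4 of 11 import genes and 1 of 4 carriers with a window held it, and Timm23, Tomm70a, Timm17a, Timm50 and Slc25a5 were among those without. The other 6 carriers that held it (Slc25a1, Slc25a13, Slc25a14, Slc25a15, Slc25a31 and Slc25a36) were called with anti-IgM in neither genotype. They were 6 of 17 such carriers with a window, and 0 of 4 such import genes held it. The letters CCGGAAG, which ETS factors can bind, were in 6 of 16 import genes (37.5%), 6 of 31 carriers (19.4%) and 14.2% of genes on the array. TGACGTCA, the full site of CREB, was in 0 import genes, 2 carriers (6.45%) and 2.79% of genes. GCATGCGC, part of the letters that NRF1 binds, was in 1 import gene (6.25%), 1 carrier (3.23%) and 4.39% of genes on the array. All 4 motifs were searched on both strands; TGACGTCA and CACGTG share the letters ACGT but neither contains the other. A match describes letters only.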

How the data were processed

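Oligonucleotide arrays read in 2 colours compared amplified RNA of mouse splenic B cells, with Cy3 and Cy5 exchanged between the arrays of a pair, per the labels. The authors deposited 1 log ratio per probe and array, taken here as log2 and normalised near 0 (array medians between 0.000895 and 0.0148); the lowest value of -9.03 lies outside what 16-bit scans allow in log10 (4.82), and the log base, the normalisation and the background correction are not given in the sources used here. Intensities were not used, so no probe could be judged against background. Ratios were turned by the dye labels. Of 25344 probes, 21111 had 1 gene symbol in the platform annotation, 0 had several and 4233 had none. Probes were averaged by symbol, after 3974 probes were given an updated symbol. This gave 18300 genes and, with unnamed probes, 22533 features. Membership by the rule was read from the platform symbols.

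One limma fit (version 3.58.1, R 4.3.3) on all 10 arrays had 5 group coefficients and a dye term, leaving 4 residual degrees of freedom; 2 further contrasts tested the difference between genotypes at 2 h and with PGE2 at 24 h. P-values came from moderated tests adjusted by Benjamini-Hochberg, and the code was tested on simulated data. Named with array values were the largest called rises and falls per class and comparison, members differing between genotypes, core subunits, and members whose arrays differed by over 1. The members and the gene lists were chosen with earlier results of these data known. Alternatives were a fit without the dye term, array centring, probes kept apart and a fit to the compared pairs by themselves. Further ones were a 1.5-fold minimum, members taken by updated symbols, and leaving out each array. Promoters are from RefSeq, build GRCm38.p6.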

Additional observations from a re-analysis of the deposited data

Results flagged for a closer look

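The difference between genotypes in the response to PGE2 at 24 h (cells labelled Ptger4-/- minus Ptger4+/+ cells) passed limma's test at an adjusted p under 0.05 for 15 members, and these values are on the log2 scale. Among import genes it was 1.04 for Timm10, 0.89 for Tomm20, 0.85 for Timm50, 0.84 for Timm17a, 0.63 for Timm8b and 0.48 for Tomm22. For carriers it was 2.03 for Slc25a3, 0.88 for Slc25a28, 0.81 for Slc25a5, 0.70 for Slc25a32, 0.60 for Slc25a33, 0.53 for Slc25a16, 0.50 for Slc25a12, 0.36 for Slc25a14 and -0.37 for Slc25a39. The arrays of PGE2 in cells labelled Ptger4-/- correlated at -0.219 over all features, and the part of this in the differences was not tested. With anti-IgM at 2 h, Slc25a3 passed with a difference of 1.04. With 2 arrays per comparison, single arrays far from the rest of their group could not be tested for.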

How the results depend on the processing

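With a minimum fold of 1.5, import genes called numbered 7 and 7 with anti-IgM in cells labelled Ptger4-/- and Ptger4+/+ cells, 0 with PGE2 in Ptger4+/+ cells, 3 for Ptger4-/- over Ptger4+/+ and 0 for the difference in PGE2 response, against 12, 11, 12, 13 and 6; over all features 4.41%, 3.34%, 1.11%, 2.26% and 0.546% were called, against 23.3%, 21.1%, 26.1%, 26.9% and 12.7%. Carriers called then numbered 4, 3, 2, 2 and 1 in the same order, against 14, 12, 12, 13 and 9, and 0 against 1 for the difference at 2 h. With only the arrays compared, 4 import genes and 5 carriers were called with PGE2 in Ptger4+/+ cells, and 5 carriers for Ptger4-/- over Ptger4+/+, where 3.68% and 6.85% of all features were called. Without the dye term, carriers called were 8 for Ptger4-/- over Ptger4+/+, 4 for the difference in PGE2 response and 0 for that at 2 h, and import genes called for the difference in PGE2 response were 4, where 12.2%, 4.93% and 0.0311% of all features were called in these 3 contrasts. With updated symbols, 1 import gene (Tomm6) was called with PGE2 in cells labelled Ptger4-/-, against 0. With PGE2 in Ptger4+/+ cells, 1 import gene (Tomm6) was then higher, against 0, and 3 carriers (with Slc25a47 and Slc25a53), against 1. For Ptger4-/- over Ptger4+/+, 4 carriers were lower (with Slc25a51 and Slc25a53), against 2, and 1 import gene (Tomm6), against 0.

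Leaving out each array in turn, carriers called ranged from 10 to 15 with anti-IgM in cells labelled Ptger4-/- and from 7 to 12 in Ptger4+/+ cells, from 0 to 0 with PGE2 in cells labelled Ptger4-/- and from 6 to 12 in Ptger4+/+ cells, from 4 to 13 for Ptger4-/- over Ptger4+/+, from 3 to 9 for the difference in PGE2 response and from 0 to 1 for that at 2 h. Import genes called ranged from 10 to 12 and 10 to 12 with anti-IgM in cells labelled Ptger4-/- and Ptger4+/+ cells, from 7 to 13 with PGE2 in Ptger4+/+ cells, from 9 to 13 for Ptger4-/- over Ptger4+/+ and from 4 to 8 for the difference in PGE2 response. Whichever array was left out, 9 of 12, 10 of 11, 6 of 12 and 9 of 13 import calls were kept in the first 4 of these. A pair reduced to 1 array took its spread from the remaining pairs. The share of all features called also fell in a contrast when an array of its own pairs was left out. The exception was PGE2 in cells labelled Ptger4-/-, where that share rose. Slc25a42 changed sign with its probes: -0.0413 with PGE2 in Ptger4+/+ cells on one probe, and 0.0633 for Ptger4-/- over Ptger4+/+ on another. The cause of these changes was not tested, beyond the stricter limit and the fewer arrays that the settings bring. No paired analysis was possible because the labels give no replicate numbers that link arrays of different comparisons.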
